A study of Ovis aries with 40 samples.

Results

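The change in gene expression from day 120 of gestation to term was measured in the proximal lung of sheep with cystic fibrosis (CF). It was chosen by tissue, genotype and age alone, and it rests on 4 of the 40 libraries of the study, 2 from day 120 and 2 from term. The study followed lung development in WT and CF sheep by bulk RNA sequencing of 2 lung regions, proximal and distal. The 40 libraries cover gestational days 65, 80, 100 and 120 and term, and the WT distal ones among them were not used here. Day 50, which the study also sampled, was not analysed here. The CF animals carry the genotype CFTR-/-, produced by targeting exon 2 of *CFTR*, and were cloned by nuclear transfer from fetal fibroblasts of 1 male American Romney line. The WT sheep are of the same breed and were sired by rams, and both the WT ewes and the ewes that received cloned embryos had their estrus synchronized with cloprostenol, a prostaglandin analogue. For the recipient ewes only, the methods describe vaginal sponges and a different volume of cloprostenol. Each of the 4 CF proximal libraries comes from an animal of its own by the labels, the labels name no treatment of the fetuses, and the CF distal libraries used below come from the same animals. All CF animals share the cell line, the cloning and this synchronization of the recipient ewes, so none of these can be told apart from the genotype when CF is set beside WT. The labels call the term samples day 147 (birth), and the methods say that the WT term animals were born naturally. How the CF term animals were delivered is not given in the sources used here, and birth and age cannot be told apart in a comparison of term with day 120.

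*CFTR* encodes the epithelial anion channel whose loss causes CF. Late in gestation the sheep lung passes from building airways and sacs by rapid cell division to a thin, aerated organ that makes surfactant and takes up fluid, and a rise of fetal cortisol before birth is known to promote that maturation. Dividing cells are recognised in bulk RNA by a shared group of transcripts that includes the mitotic kinesins, motor proteins that move chromosomes and spindle fibres, and the proteins of the kinetochore, the spindle checkpoint and cytokinesis.

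The day 120 libraries held 93595123 and 101116915 counted reads and the term libraries 118526165 and 117316905. The 2 day 120 libraries differed widely, with a root mean square log2 difference of 1.67 over 14296 genes with an average log2 CPM (read counts scaled to library size) of at least 1, against 0.49 to 0.78 at the other 4 time points. Of these genes, 6331 differed by more than 1 log2 unit between them. Their ratio followed gene length, as the plot of replicate spread shows. The median log2 ratio of replicate 1 over replicate 2 was -1.12 in the 3574 genes with the shortest exonic length and 0.73 in the 3573 with the longest, against 0.10 and -0.06 at term. Replicate 2 also held a smaller share of mitochondrial reads (0.942% against 1.92%) and more of some transcripts of airway epithelium and cartilage. The basal keratin *KRT5* stood at 59.5 CPM in replicate 2 and 1.04 in replicate 1, and *COL2A1*, the collagen of cartilage, at 74.4 and 1.01. The other 6 of the 8 genes with the largest excess in replicate 2, among genes averaging at least 3 log2 CPM, were *PI3*, *SCGB3A2*, *KRT15*, LOC101104815, *GHRL* and *KRT17*. The 8 with the largest excess in replicate 1 were LOC101108035 (45.5 CPM, with no read in replicate 2), LOC105606136, *ARRDC4*, *ZNF516*, LOC106991829, *PEG10* (172 and 0.515 CPM), *SOGA3* and *USF3*. The labels call the tissue epithelial, but defining genes of other cells were abundant in all 4 libraries, with 999 to 3416 CPM of the fibroblast collagen *COL1A1*, 575 to 712 of the endothelial *PECAM1* and 74.5 to 808 of the smooth muscle actin *ACTA2*. In such bulk tissue, fewer cells of a type and less RNA per cell cannot be told apart.

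**Figure D1:**
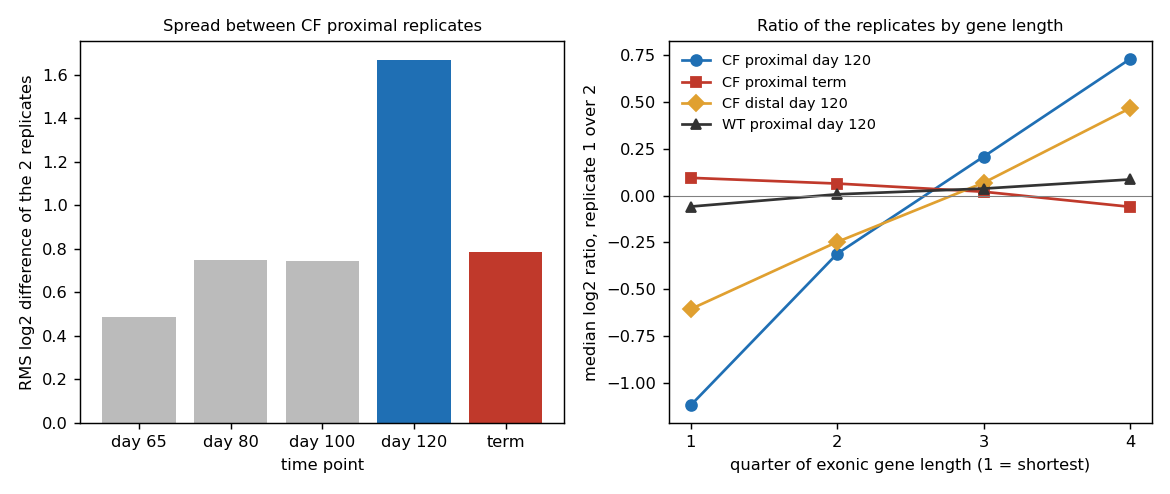
Left, root mean square log2 difference between the 2 CF proximal replicates at each time point over 14296 genes. Right, median log2 ratio of replicate 1 over replicate 2 in 4 equal groups of genes ordered by exonic length (1 shortest, 4 longest) for CF proximal day 120 and term, CF distal day 120 and WT proximal day 120; the CF proximal day 120 line climbs from -1.12 to 0.73 and the CF distal one from -0.61 to 0.47, while the other 2 stay between -0.06 and 0.10.

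The targeted gene was read first. *CFTR* stood at 8.96 and 5.15 CPM at day 120 and at 3.93 and 5.16 at term. The time points overlapped, and the log2 fold change of -0.64 ± 0.43 (SE) did not pass the test (adjusted p = 0.548 by edgeR's quasi-likelihood test with Benjamini-Hochberg adjustment). All 4 animals carry the same edit, so this level checks no label between the time points.

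Between day 120 and term, genes of mitosis fell and a smaller group that included *LYVE1*, *C7* and *FKBP5* rose. A gene was called when its adjusted p was 0.05 or less, its log2 fold change was 0.58 or more in size, and both libraries of 1 time point lay above both of the other. Of 19690 genes tested, 55 were lower at term (0.279%) and 15 higher (0.0762%), with a median log2 fold change of -0.12 over all genes. Of the 55 that fell, 29 were matched by symbol to 1 of 4 lists of cell cycle genes and 26 to none, although many of the 26 also act in cell division. One of these, *SGOL1*, is the older symbol of the spindle list's *SGO1*, which was not matched, so the counts of list members that fell are 1 too low. Falls ran from -1.81 to -8.69 and rises from 1.67 to 7.20 on the log2 scale. The smallest adjusted p was 0.0235 and no gene reached 0.001, while 2967 genes (15.1%) had an unadjusted p below 0.05, 1700 of them lower and 1267 higher. At an unadjusted p of 0.001 or less, with the same fold and separation, 159 genes were lower (0.808%) and 61 higher (0.31%). Separation by itself was common, since 3450 genes (17.5%) had both term libraries below both day 120 libraries and 3008 (15.3%) had both above. The last genes inside the threshold were LOC101106528 (log2 fold change 2.96), *SGOL1* (-2.28) and *CDC6* (-2.44), tied at an adjusted p of 0.0488. The next outside it was *E2F8*, with a log2 fold change of -2.90 and an adjusted p of 0.0519. The number of calls depended on single libraries, with 474 lower and 843 higher without day 120 replicate 1, 171 and 38 without day 120 replicate 2, 180 and 158 without term replicate 1, and 0 and 1 (*LYVE1*) without term replicate 2. DESeq2 called 764 lower and 590 higher, including all 70, while edgeR on the 4 libraries alone, limma with sample weights and edgeR with a replicate block called none, where an unadjusted p below 0.05 was found for 942, 1129 and 2472 genes respectively. With no change at all, a share of about 0.05 of the genes tested would reach that p, so a count near that share shows no change by itself.

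Of 13 mitotic kinesins tested, 9 fell and none rose, and their median log2 fold change was -3.13 against -0.12 over all genes. *KIF18B* (chr11:43997941-44024304 in Oar_v4.0, the build of the deposited table), a motor that shortens microtubules at their growing ends, stood at 21.5 and 10.02 CPM at day 120 and at 0.804 and 0.576 at term. Both term libraries lay far below both day 120 libraries, and the fall was -4.51 ± 0.48 (log2, SE; adjusted p = 0.0235 by edgeR). *KIF2C* (chr1:19182315-19200422), which takes apart microtubules at the centromere, stood at 7.58 and 10.2 CPM at day 120 and 0.716 and 0.576 at term, a fall of -3.78 ± 0.36. *CENPE*, the kinetochore motor that brings chromosomes to the spindle equator, went from 19.01 and 9.92 CPM to 1.43 and 1.22. *KIFC1*, which draws spindle poles together, went from 22.1 and 35.9 CPM to 3.54 and 2.38. On the log scale, the day 120 libraries of each of these differed by less than the gap to term. *KIF4A*, a motor of the central spindle, fell from 12.6 and 9.97 CPM to 1.51 and 1.03. The other 4 that fell were *KIF14* and *KIF23*, which act in cytokinesis, *KIF22*, which binds chromosome arms, and *KIF11*, which pushes the spindle poles apart, with log2 fold changes of -2.69 to -3.28. *KIF23* shares exons with LOC105611449 on the opposite strand, and the strand setting of the counting is not given in the sources used here. Of 22 kinesins that carry cargo in resting cells, none was called by edgeR, 2 had an unadjusted p below 0.05 and DESeq2 called none, with a median log2 fold change of -0.35. None of the mitotic kinesins was called without term replicate 2.

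**Figure D2:**
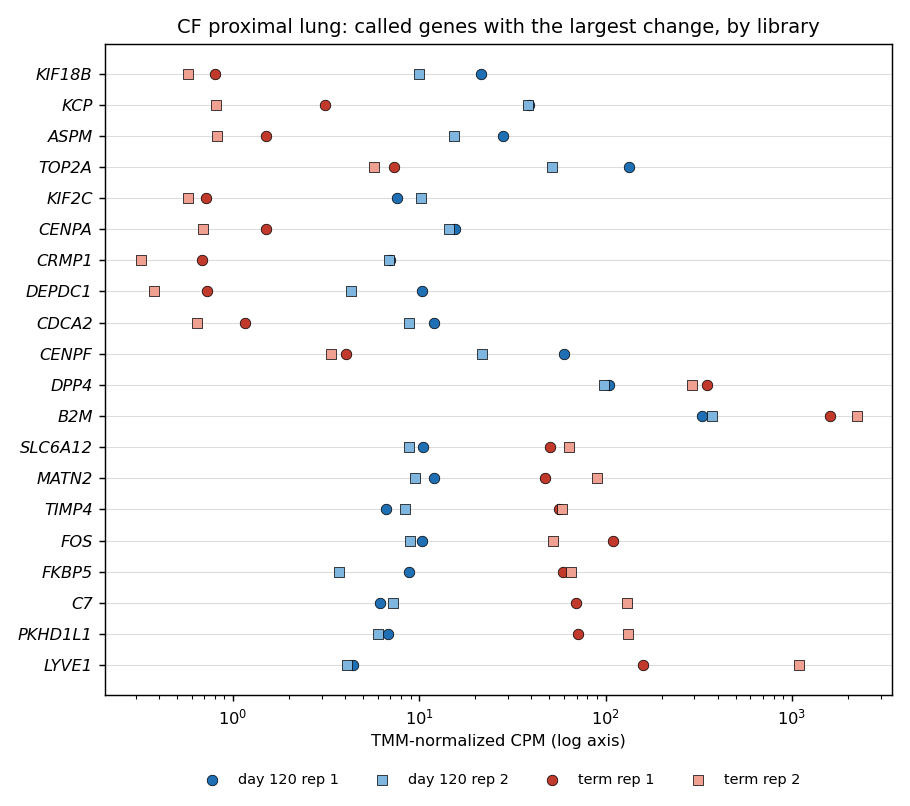
TMM-normalized CPM (log axis) in the 4 CF proximal libraries for called genes that carry a symbol (no LOC name) and average at least 1 log2 CPM, showing in each direction the 10 that changed most; circles are replicate 1, squares replicate 2, blue day 120, red term. Both red points lie on 1 side of both blue points in every row, as the call requires, and the gap is widest for *LYVE1*, whose term libraries stood at 158 and 1094 CPM.

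Of 45 genes matched to the list of the spindle, kinetochore and mitotic exit, 17 fell and none rose. *SGOL1*, the protector of sister chromatid cohesion that the match missed, fell as well, from 9.27 and 8.49 CPM to 1.35 and 2.30 (log2 fold change -2.28 ± 0.35, adjusted p = 0.0488 by edgeR). All 45 had a log2 fold change below 0, against 56.8% of all genes, with a median of -2.25, and 41 were separated. *TOP2A* (chr11:40153826-40180113), which untangles sister chromatids, stood at 134 and 51.5 CPM at day 120 and at 7.34 and 5.71 at term, a fall of -3.83 ± 0.48. *ASPM*, a protein of the spindle poles, went from 28.1 and 15.3 CPM to 1.51 and 0.819. *CENPA*, the histone that marks centromeres, went from 15.5 and 14.5 CPM to 1.4996 and 0.687, and *CENPF*, a kinetochore protein, from 60.2 and 21.6 to 4.06 and 3.34. Term was the lower time point in every library for these 4, although replicate 1 stood well above replicate 2 at day 120 for *TOP2A* and *CENPF*. *NUSAP1*, which bundles spindle microtubules, was among the 3 falls with the smallest p, with 38.2 and 31.8 CPM at day 120 and 7.33 and 5.54 at term. The remaining 12 include 3 members of the chromosomal passenger complex (*AURKB*, *BIRC5*, *CDCA8*), an activator and a ubiquitin enzyme of the anaphase promoting complex (*CDC20*, *UBE2C*), cyclin B1 (*CCNB1*) and the checkpoint kinase *BUB1*, with log2 fold changes of -1.81 to -3.41. Left-out libraries gave 28, 31, 18 and 0 calls on this list, for day 120 replicates 1 and 2 and term replicates 1 and 2.

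Among genes of DNA synthesis, 3 fell and none rose. Of 37 tested, 27 were separated lower and 1 higher, and the median log2 fold change was -1.03. *RRM2*, the limiting subunit of ribonucleotide reductase, went from 30.2 and 15.6 CPM to 4.08 and 3.81. *UHRF1*, which maintains DNA methylation at replication forks, went from 49.0 and 24.9 CPM to 7.54 and 4.84, and *CDC6*, which loads the replicative helicase, from 7.61 and 5.19 to 1.47 and 0.886. All 3 were lower at term in both libraries, with falls of -2.44 to -2.58 and adjusted p of 0.0361 to 0.0488. Whether the share called differs between the DNA synthesis and mitotic lists was not tested. Left-out libraries gave 10, 3, 4 and 0 calls, in the order used above. None of 17 E2F factors and pocket proteins was called by edgeR, with 6 lower at an unadjusted p below 0.05, 4 called by DESeq2 and 9 separated lower. The proliferation marker *MKI67* stood at 105 and 9.38 CPM at day 120 and at 4.46 and 6.97 at term. It was lower at term in both libraries but missed the threshold (log2 fold change -3.33 ± 1.03, adjusted p = 0.204), and its day 120 libraries lay far apart. None of 13 cell cycle inhibitors was called by edgeR, 6 were separated higher and 6 had an unadjusted p below 0.05 on the higher side, where DESeq2 called 5.

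Over the 4 cell cycle lists together, 101 of 112 genes tested had a log2 fold change below 0 (56.8% of all genes did), and 89 were separated lower and 2 higher. Across gestation, the summed level of the 13 mitotic kinesins in CF proximal lung was 606 and 617 CPM at day 65, 466 and 527 at day 80, 434 and 439 at day 100, 254 and 182 at day 120, and 54.4 and 40.4 at term, on a scale shared with WT. Each day 120 library lay below both day 100 libraries and above both term libraries. For 52 of the 55 genes that fell, both day 120 libraries already lay below both day 100 libraries (14.9% of all 20344 genes in that table), and for all 55 the term libraries were the lowest of the 10 (11.0% of all genes), the latter partly fixed by the choice of the genes.

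**Figure D3:**
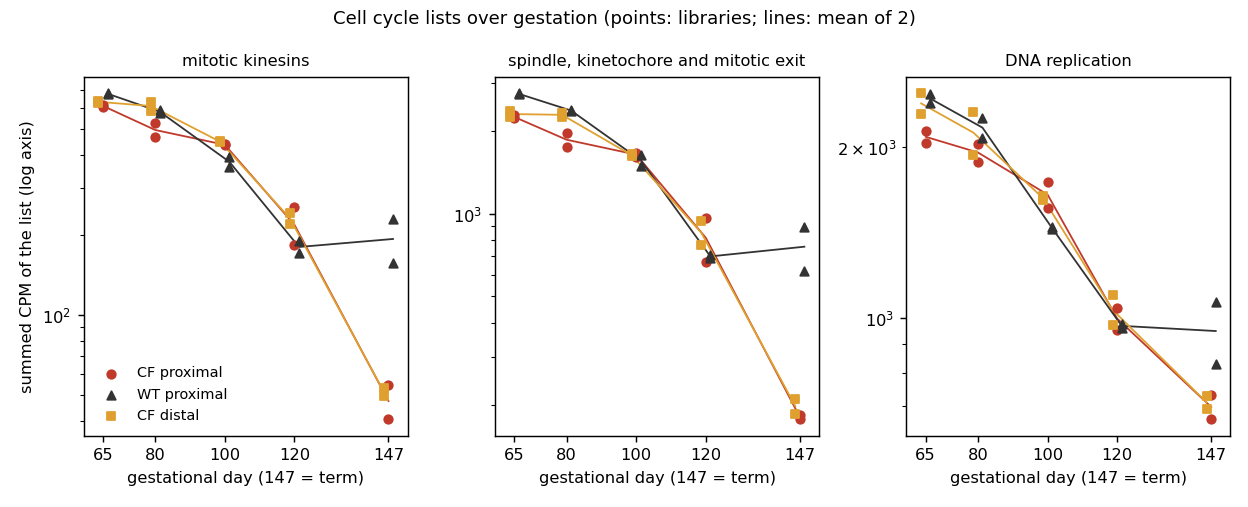
Summed CPM (log axis) of 3 gene lists against gestational day, with term at day 147, in CF proximal lung (red circles), WT proximal lung (black triangles) and CF distal lung (yellow squares); points are libraries, lines join the means of 2, and the distal libraries were scaled among themselves. In the mitotic kinesin panel CF proximal lung reached 54.4 and 40.4 at term, while WT proximal lung stood at 230 and 157.

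The falls matched to no cell cycle list held further genes of cell division, such as *CEP55*, *RACGAP1* and *SHCBP1* of cytokinesis, *SPAG5* and *TROAP* of the spindle, *CENPN* and *CENPW* of the centromere, the cyclin *CCNF* and *KIAA0101*, a partner of the replication clamp, with log2 fold changes of -2.09 to -3.19. These were named after their values were seen. Genes with other roles fell too. Both called genes of the smooth muscle list belong to the contractile programme. *MYH11* (chr24:14090323-14217839), the smooth muscle myosin heavy chain, stood at 334 and 263 CPM at day 120 and at 64.3 and 68.7 at term, a fall of -2.17 ± 0.27 (adjusted p = 0.0262). *MYOCD*, the coactivator that switches on smooth muscle genes, went from 23.2 and 15.4 CPM to 3.31 and 3.10. The 2 time points were far apart in both. Of 18 smooth muscle genes tested, 8 were separated lower and 1 higher, and the median was -0.70. *ACTA2* stood at 566 and 808 CPM at day 120 and 235 and 74.5 at term and did not pass the test (adjusted p = 0.154).

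The largest falls off the lists included *KCP*, a secreted modulator of BMP signals, from 38.9 and 38.5 CPM to 3.14 and 0.808. *CRMP1*, a cytosolic protein of the semaphorin pathway, went from 6.96 and 6.86 CPM to 0.686 and 0.321. *DEPDC1*, linked to mitosis, went from 10.4 and 4.29 CPM to 0.725 and 0.376, and *CDCA2*, a chromatin protein of dividing cells, from 11.95 and 8.80 to 1.16 and 0.642. The day 120 libraries of *KCP* and *CRMP1* lay close together, and the term libraries of all 4 were lower. *KCND2*, a potassium channel gene, had 69 and 28 reads at day 120 and none at term, 34.1-fold lower when 3 reads over the term pair are taken as the floor. That floor takes each read as 1 independent count, and the bound is smaller if both mates were counted. The fibrillin *FBN3* fell by 2.89 on the log2 scale, *ENPEP*, a membrane peptidase, by 2.61 and *EZH2*, the histone methyltransferase of the Polycomb complex, by 1.84. These last 3 were picked for mention after their values were seen. One other, *FANCD2*, overlaps exons of *EMC3* on the opposite strand.

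The 15 genes that rose did not gather in a single list, as 1 each was on the endothelial, complement, antigen presentation and glucocorticoid lists. *LYVE1* (chr15:41574532-41589158), a hyaluronan receptor of lymphatic endothelium and of some macrophages, stood at 4.41 and 4.10 CPM at day 120 and at 158 and 1094 at term. The day 120 libraries were close and the term libraries far apart, and the rise was 7.20 ± 0.90 (log2, SE; adjusted p = 0.0262 by edgeR). Of 30 endothelial genes tested, *LYVE1* was the only one called by edgeR, 8 were separated higher and 3 lower, and DESeq2 called 3 higher and none lower. *PECAM1*, *CDH5* and *KDR*, which mark endothelium in general and were picked after their values were seen, stood at 575 to 609, 339 to 767 and 148 to 420 CPM at day 120 and 668 to 712, 435 to 547 and 274 to 279 at term. *C7* (chr16:33459612-33547717), a terminal complement component, stood at 6.17 and 7.24 CPM at day 120 and at 69.3 and 131 at term, a rise of 3.8998 ± 0.40. *FKBP5*, a cochaperone that glucocorticoids induce, went from 8.77 and 3.69 CPM to 59.1 and 65.1, a rise of 3.32 ± 0.45. Day 120 was the lowest of the 5 time points for *FKBP5*, which stood at 35.5 and 36.1 CPM at day 65 and 14.4 and 15.4 at day 100 on the scale shared with WT.

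*B2M*, the light chain of MHC class I, stood at 328 and 372 CPM at day 120 and at 1613 and 2229 at term, a rise of 2.46 ± 0.32. *FOS*, an immediate early factor, went from 10.4 and 8.94 CPM to 109 and 52.2. *TIMP4*, an inhibitor of matrix proteases, went from 6.61 and 8.39 CPM to 56.6 and 58.0, with an SE of 0.33 around a rise of 2.93. The 2 libraries of each time point were close for *TIMP4* and *B2M* and further apart for *FOS* at term. *MATN2*, a matrix adaptor protein, rose by 2.68 on the log2 scale. *PKHD1L1*, a large membrane protein, went from 6.82 and 5.99 CPM to 71.2 and 132, and *SLC6A12*, a betaine transporter, from 10.5 and 8.77 to 50.3 and 63.5. *DPP4*, a membrane peptidase, showed the smallest rise, from 104 and 98.0 CPM to 351 and 293. For all 15 the term libraries were the highest of the 10 CF proximal libraries (10.8% of all genes), which the choice of the genes partly fixed. *TIMP4* overlaps exons of *SYN2* and *MATN2* those of LOC105616083, each on the opposite strand. The remaining 5 have LOC names. One of them, LOC101120775, is named *FOLR3* by RefSeq, and LOC101105560 was among the 3 rises with the smallest p, with 0.709 and 0.384 CPM at day 120 and 13.6 and 15.9 at term.

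Several immune lists, though not the interferon list, held many genes that lay higher at term without passing the test. Over all 19690 genes, 15.3% were separated higher and 17.5% lower. On the higher side, 1267 of the 19690 had an unadjusted p below 0.05 and DESeq2 called 590. Of 35 macrophage genes tested, 28 were separated higher and 1 lower, with a median log2 fold change of 1.34. None was called by edgeR, 23 had an unadjusted p below 0.05 on the higher side and DESeq2 called 17. *MARCO*, a scavenger receptor of alveolar macrophages, had 2 and 0 reads at day 120 and 741 and 610 at term, a ratio of 640 with a 95% interval for counting error from 177 to 5290, and missed the threshold (adjusted p = 0.0601). That interval takes each read as 1 independent count, so it is too narrow if both mates were counted. *C1QA*, a complement subunit made by macrophages, stood at 13.0 and 25.0 CPM at day 120 and 82.2 and 102 at term, while *CD68* was flat at 31.9 and 34.8 against 27.9 and 39.0. Of 28 T and NK cell genes, 19 were separated higher, edgeR called none, 12 had an unadjusted p below 0.05 and DESeq2 called 10. Of 26 genes of antigen presentation, 21 were separated higher and *B2M* was called. On the complement list 12 of 28 were separated higher and 5 lower, the latter near the share of all genes. *C3* stood at 535 and 716 CPM at day 120 and at 425 and 366 at term (adjusted p = 0.380). Of 29 interferon induced genes, 3 were separated higher and 1 lower, with a median of 0.08, none was called by edgeR or DESeq2, and 1 had an unadjusted p below 0.05, on the lower side. Of 29 genes of inflammatory signals, 7 were separated higher and 3 lower, edgeR called none, 5 higher and 2 lower had an unadjusted p below 0.05, and DESeq2 called 2 in each direction.

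Besides *FKBP5*, 12 more of 18 genes of the glucocorticoid response were separated higher, with a median of 1.65 over the list. Among them were *KLF9* (35.5 and 21.3 CPM against 119 and 179) and *TSC22D3* (144 and 200 against 390 and 457), with adjusted p of 0.0632 and 0.128. The summed level of the hypoxia and glycolysis list was higher in both term libraries, and by far the most in replicate 2. Its 34 genes summed to 3216 and 3369 CPM at day 120 and to 4358 and 25438 in term replicates 1 and 2. Of these, 17 were separated higher and none lower (15.3% and 17.5% of all genes). At an unadjusted p below 0.05, 23 were higher (1267 of all 19690 genes were), edgeR called none and DESeq2 called 11. *LDHA*, lactate dehydrogenase, stood at 116 and 141 CPM at day 120 and 190 and 2376 at term. The same library had the higher *LYVE1*, and the part of either in the other was not tested.

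**Figure D4:**
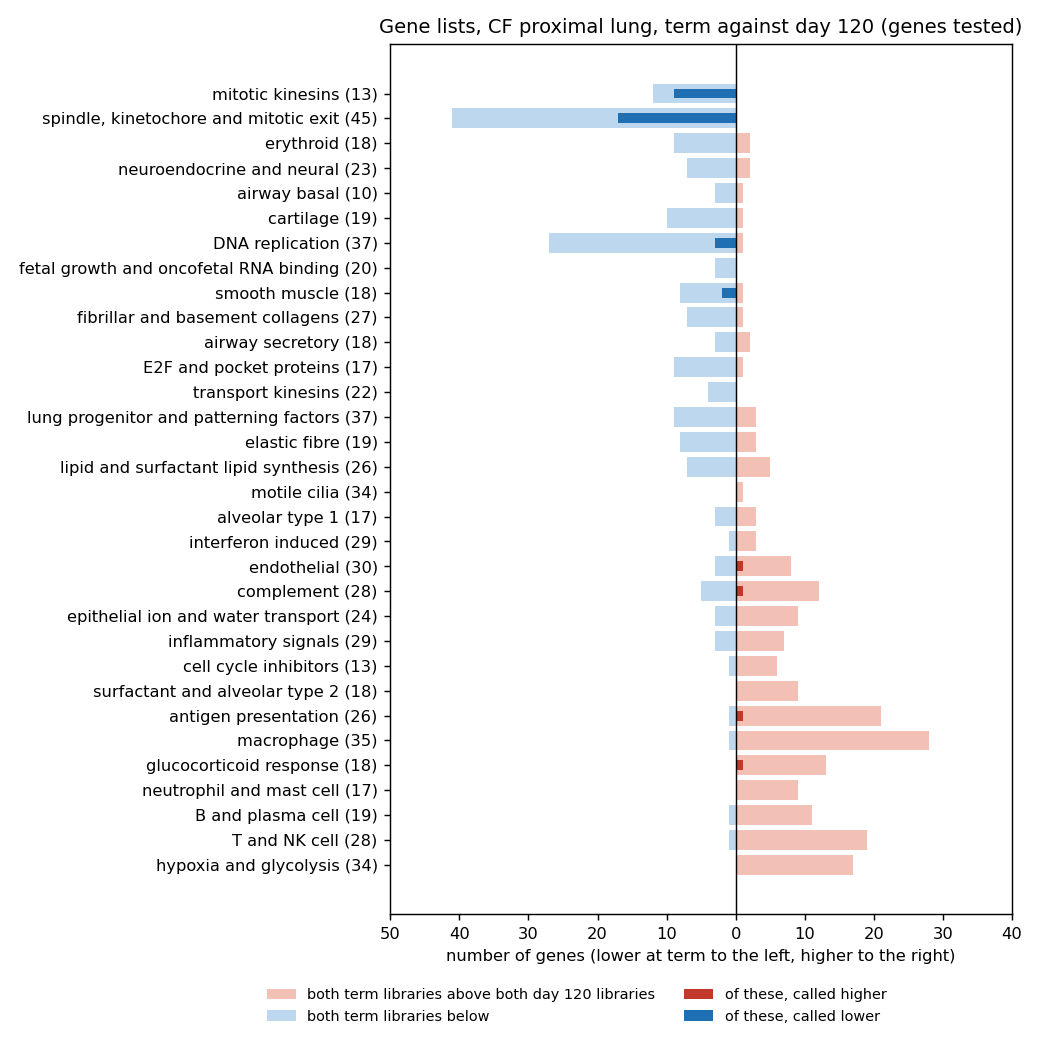
For each of 32 gene lists (number of genes tested in brackets), the number whose 2 term libraries both lay above (light red, right) or below (light blue, left) both day 120 libraries, and within these the number called (dark). Lists are ordered by median log2 fold change. The spindle list has 41 genes on the left, 17 of them called, and the macrophage list 28 on the right, none of them called.

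By edgeR no gene of the surfactant, airway secretory, airway basal or motile cilia lists was called. On the airway secretory list 2 genes in each direction had an unadjusted p below 0.05 and DESeq2 called 1 in each, on the basal list 3 were lower at that p and DESeq2 called 1 lower, and on the cilia list there were none by either measure. *SFTPC*, a surfactant protein of alveolar type 2 cells, stood at 2870 and 16633 CPM at day 120 and 18637 and 4193 at term. *SFTPB* stood at 1833 and 2016 CPM against 3462 and 2515, *SFTPA1* at 1641 and 1235 against 4449 and 1825, and *SFTPD* at 340 and 663 against 811 and 943. These last 3 were separated higher with log2 fold changes of 0.63, 1.13 and 0.81, and their adjusted p ran from 0.366 to 0.478. Of 18 surfactant and type 2 genes, 9 were separated higher and none lower, edgeR called none, 3 had an unadjusted p below 0.05 and DESeq2 called 3. The club cell protein *SCGB1A1* stood at 21.0 and 96.3 CPM at day 120 and 599 and 445 at term (log2 fold change 3.15 ± 0.80, adjusted p = 0.138). *SCGB3A2* stood at 81.3 and 3490 CPM against 198 and 329, *WFDC2*, a protease inhibitor, at 57.5 and 482 against 223 and 128, *BPIFB1* at 6.98 and 32.3 against 10.4 and 64.8, and *FOXJ1*, the factor of ciliated cells, at 25.9 and 133 against 48.2 and 105. In these 4 the time points overlapped, and replicate 2 was the higher day 120 library. *BPIFA1* was below the filter, with 9 reads in day 120 replicate 1 and none in the other 3 libraries compared.

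Transport genes of the airway surface were read for their role in clearing lung fluid. The sodium channel subunit *SCNN1G* stood at 3.57 and 3.36 CPM at day 120 and 12.1 and 31.4 at term, *SCNN1A* at 16.5 and 1.99 against 25.2 and 43.2, and *SCNN1B* at 16.9 and 43.3 against 37.4 and 54.7. *SCNN1G* and *SCNN1A* were separated and *SCNN1B* was not, and none passed the test, with adjusted p of 0.125, 0.340 and 0.678. The chloride channel *ANO1* stood at 82.4 and 115 CPM against 102 and 119, the anion transporter *SLC26A9* at 29.0 and 53.2 against 62.4 and 18.8, the water channel *AQP5* at 89.5 and 131 against 166 and 145, and the tight junction gene *TJP1* at 571 and 252 against 346 and 245. Of 24 genes of epithelial ion and water transport, edgeR called none, 5 had an unadjusted p below 0.05 on the higher and 2 on the lower side, and DESeq2 called 3 higher and 1 lower. Some genes of cartilage and basal cells were high in day 120 replicate 2, although the 10 tested genes of the airway basal list summed to 1357 CPM in replicate 1 and 1052 in replicate 2. *COL2A1* stood at 0.431 and 0.155 CPM at term and *KRT5* at 0.980 and 2.16, far below day 120 replicate 2 (adjusted p = 0.126 and 0.292).

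To ask whether the fall of the cell cycle is shared with WT, the same interval was read in WT proximal lung, whose libraries held 33804005 to 38635126 reads at day 120 and 124896207 to 125713608 at term. Depth, breeding and genotype differ together there and cannot be told apart. In a fit of the WT libraries alone, which had no part in choosing the genes, 6 of the 55 genes that fell in CF also fell in WT (8.76% of all genes fell) and 6 rose (11.3% of all genes rose). In WT, 9 were separated lower and 15 higher, against 30.3% and 37.1% of all genes, and the median log2 fold change of the 55 was 0.06, equal to that of all genes to 2 decimals. Those that fell in both included *KCP*, *CRMP1*, *FBN3*, *ENPEP* and *KCTD12*, and none was on a cell cycle list. The 6 that rose in WT were *BUB1*, *BIRC5*, *CDC20*, *KIFC1*, *NEK2* and LOC101102473. Of the 15 genes that rose in CF, 10 also rose in WT and 12 were separated higher, with a median log2 fold change in WT of 2.76. *C7* rose by 3.35 and *FKBP5* by 4.06 in WT on the log2 scale.

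On a scale shared by the 20 proximal libraries, *TOP2A* stood at 93.6 and 86.4 CPM at day 120 and at 90.2 and 56.0 at term in WT, against 131 and 50.0 and then 7.28 and 5.70 in CF. At day 120 the WT libraries lay between the CF libraries, and at term the CF libraries lay far below. The levels were compared with day 100 as well. For 54 of the 55 genes both WT day 120 libraries lay below both WT day 100 libraries, against 21.9% of all genes. The mitotic kinesins summed to 392.4 and 361 CPM at day 100, 189 and 171 at day 120 and 230 and 157 at term in WT. At day 120 both CF libraries lay above both WT libraries for 30 of the 55 genes and below for 1 (19.6% and 17.1% of all genes), and at term 48 lay below and 2 above (29.6% and 24.7%). CF levels at both time points had entered the choice of the genes, so these counts are a description. *MYH11* stood at 152 and 114 CPM at day 120 and 126 and 100.5 at term in WT, against 325 and 255 and then 63.8 and 68.5 in CF, so that CF lay above WT at day 120 and below it at term.

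The difference between the 2 changes was tested by edgeR over the 20 proximal libraries. Of 20344 genes, 243 had a lower change in CF than in WT (1.19%) and 119 a higher one (0.585%). Among the 55 genes that fell in CF, 47 had the lower change in CF by this test, and among the 15 that rose, *LYVE1*, *PKHD1L1* and LOC101104482 had the higher one. The CF change enters both the choice of these genes and this difference, so the counts are a description. The difference was -4.31 ± 0.44 (log2, SE) for *KIF2C* (adjusted p = 7.3e-04), -3.51 ± 0.35 for *KIF4A* and 4.27 for *LYVE1* (adjusted p = 0.0318). *CFTR* had a difference of -0.65 ± 0.49 that did not pass (adjusted p = 0.567). Among genes chosen for their function, the change was lower in CF for *SCNN1B* (-3.01 ± 0.63, adjusted p = 0.0281), *C3* (-2.20 ± 0.45, adjusted p = 0.0253) and *ANO1* (-1.22 ± 0.28, adjusted p = 0.0435). *SCNN1B* stood at 21.7 and 17.9 CPM at day 120 and 257 and 242 at term in WT. Leaving out 1 library moved the counts of lower and higher changes to 1490 and 2347 (CF day 120 replicate 1), 564 and 432 (CF day 120 replicate 2), 673 and 415 (CF term replicate 1), 92 and 48 (CF term replicate 2), 79 and 38 (WT day 120 replicate 1), 40 and 15 (WT day 120 replicate 2), 127 and 49 (WT term replicate 1), and 117 and 25 (WT term replicate 2).

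**Figure D5:**
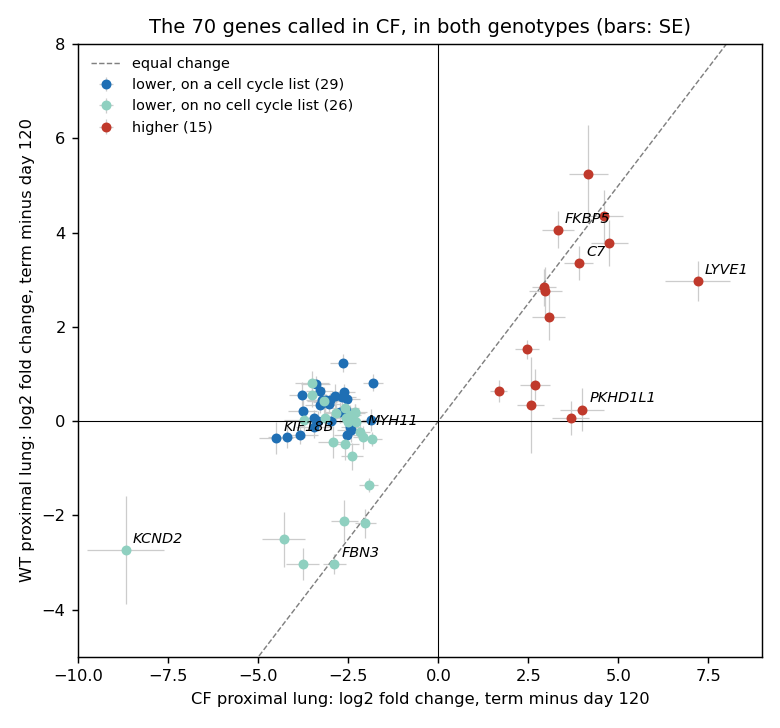
Log2 fold change from day 120 to term in CF proximal lung (horizontal axis) and WT proximal lung (vertical axis) for the 70 genes called in CF, each from a fit of its own genotype, with SE bars and a dashed line of equal change. Genes on the cell cycle lists (blue) lie left of 0 in CF and around 0 in WT, with *KIF2C* at -3.78 and 0.56. Some genes that rose (red) lie near the dashed line, such as *TIMP4* at 2.93 and 2.84, and others well below it, such as *PKHD1L1* at 3.99 and 0.24.

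Distal lung of the same CF animals was read beside it. In a fit of the 10 CF distal libraries, 54 of the 55 genes fell (11.4% of all genes fell) and all 15 rose (11.5% of all genes rose). The distal libraries were separated for 54 and 15 of them, against 30.1% lower and 27.2% higher over all genes. *BUB1* was the exception, with a log2 fold change of -0.34 in distal lung against -1.81 in proximal lung. Its distal term libraries lay far apart, at 5.29 and 19.8 CPM, against 17.0 and 14.7 at day 120. The mitotic kinesins summed to 243 and 219 CPM at day 120 and 53.1 and 49.3 at term in distal lung. *LYVE1* rose by 6.73 and *C7* by 4.07 on the log2 scale there. The 2 regions of an animal are not independent, so this is a second piece of the same lungs and not a second set of animals. With the animal as a block over the 20 CF libraries, edgeR called no gene whose change differed between proximal and distal lung (0% of 20126). At an unadjusted p below 0.05 there were 675, fewer than a share of 0.05 of these genes. Without the animal of day 120 replicate 1, 115 genes had the lower and 400 the higher change in proximal lung. The distal libraries of the day 120 animals carried the same slope with gene length in a weaker form, with median log2 ratios of replicate 1 over 2 of -0.61 in the shortest and 0.47 in the longest genes.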

How the data were processed

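Bulk RNA was sequenced as 100 bp paired reads after oligo dT priming. The authors aligned them to Oar_v4.0 with STAR (2.6 per the submitters' notes, while the paper's methods give a later version) and counted them on genes with featureCounts 1.6.3, and the deposited values are raw counts per gene, with no normalization or pooling by the authors. The annotation release, strand setting and treatment of mates are not given in the sources used here. Of the counts from 1 to 20, 75.4% to 85.8% were even in the 4 libraries, as when both mates are counted.

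The table held 24478 genes and was analysed with edgeR 4.0.16 (R 4.3.3). Genes were kept by filterByExpr (count minimum 10, total minimum 15) and scaled by TMM. The 10 CF proximal libraries, 2 per time point, were fitted with 1 mean per time point (glmQLFit, earlier method) and term was tested against day 120 by glmQLFTest with Benjamini-Hochberg adjustment over all genes. The spread thus comes from all 5 time points. Nothing states that libraries were prepared separately beyond the animal labels. The difference from WT was fitted over 20 proximal libraries, and that from distal lung over 20 CF libraries with the animal as a block, since the labels give 1 animal for both regions. SE is the log2 fold change over the root of F. Intervals cover counting error only and take each read as 1 count. Genes named are up to 4 called genes per list, in each direction the 10 called genes with a symbol that changed most (both at log2 CPM of at least 1 on average), the 3 with the smallest p, a panel of epithelial, immune and cycle genes, the 4 largest differences, and, for each direction, the 8 genes whose day 120 libraries differed most, with exceptions named in the text. List symbols were matched by symbol or RefSeq synonym, which found 759 of 823, and older symbols that RefSeq does not pair were missed. The members and lists were chosen with earlier results of these data known, so a list is described by counts beside those of all genes, with no test. Alternatives were RLE, DESeq2 1.42.0, limma 3.58.1 with sample weights, no filter, fits of 4 or 20 libraries, other limits on p, glmTreat, the newer bias-adjusted edgeR fit, counts thinned to 1 depth, each library left out, and a replicate block. A crossed block and a correction that subtracts each library's lowess curve over gene length (span 0.3) were added after seeing the data. The replicate numbers name different animals at each time point and pair none. Scripts were tested on simulated data. RefSeq names come from another assembly and were used as names only. Promoter sequences and motifs were not analysed here. One gene among those called is not reported here.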

Additional observations from a re-analysis of the deposited data

Results flagged for a closer look

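The change from day 120 to term differed between CF and WT proximal lung for 243 genes that were lower and 119 that were higher in CF by edgeR's test of the difference itself. The largest differences named by rule, as CF change minus WT change on the log2 scale, were the following. Levels are in CPM on the scale of each genotype's own table unless the shared scale is named. *CYP1A1*, a xenobiotic oxidase, had -13.49, with 0.470 and 0.0543 CPM at day 120 and 2.601 and 114 at term in WT, against 0.101 and 0.0719 and then no read in CF. *FABP4*, a fatty acid binding protein, had -12.36, with 0.118 and 0.109 CPM at day 120 and 6.23 and 81.6 at term in WT, against 0.101 and 4.75 and then 0.216 and 0.122 in CF. *STK32B* had -10.17 at very low levels, with no read in either WT day 120 or either CF term library. *COL9A2*, a cartilage collagen, had -8.85, with 0.729 and 9.50 CPM at day 120 in CF and 2.88 and 3.7996 at term in WT. On the scale shared with WT, *COL9A2* stood at 0.1845 and 0.0662 CPM at term in CF and 0.118 and 0.443 at day 120 in WT. *CDR1* had 6.96, with 32.5 and 57.9 CPM at day 120 and 0.171 and 0.0501 at term in WT. On the scale shared with WT, *CDR1* was lower at term in CF too, with 3.66 and 1.41 CPM at day 120 and then 0.641 and 0.927. Both CF day 120 libraries lay below both WT ones. *SNCG* had 7.74, with 20.2 and 177 CPM at term in CF. LOC101102411 had 9.59, with 6.14 and 89.0 CPM at term in CF. LOC105602836 had 11.89, with no read in the WT term libraries, nor in WT day 65 replicate 1 or either WT day 80 library. On the scale shared with WT, its CF time points overlapped, at 4.24 and 6.98 CPM at day 120 and 7.66 and 2.925 at term. Where a group had no read, the fitted difference depends on the prior count and is no bound. None of these 8 was called in CF proximal lung by itself.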

How the results depend on the processing

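The 70 calls kept their direction under every alternative run on this comparison, but their number did not hold. DESeq2 gave 764 lower and 590 higher, the fit of 20 proximal libraries 633 and 569, an unadjusted p of 0.001 or less 159 and 61, glmTreat 29 and 8, the bias-adjusted fit 81 and 39, and removal of the gene length trend (chosen after seeing the data, which also moved the median of all genes from -0.12 to -0.02) 152 and 100. limma with sample weights, the 4 libraries alone and an adjusted p of 0.001 or less gave 0 and 0. With the replicate block the counts were 0 and 0, with 2472 genes at an unadjusted p below 0.05, and the block is not a pairing of animals. The deviations of same-numbered day 120 and term libraries correlated at -0.13, and a crossed block, chosen after seeing the data, gave 0 and 0. Leaving out a library gave 0 (without term replicate 2) to 474 (without day 120 replicate 1) lower and 1 to 843 higher, from the same 2 libraries. For the difference from WT, DESeq2 gave 808 and 525, the replicate block 203 and 94, and removal of the length trend 342 higher. Leaving out a library there gave 40 (without WT day 120 replicate 2) to 1490 (without CF day 120 replicate 1) lower and 15 to 2347 higher. The difference from distal lung gave 0 in every alternative run except without the animal of day 120 replicate 1, so its range was 0 to 115 lower and 0 to 400 higher. The cause of these moves was not tested.

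Genes that were not called and changed sign are given by their log2 fold change. *SLC26A9* gave 0.0045 by RLE, 0.0045 by DESeq2, 0.00081 in the 4 libraries, 0.013 in the 20, 0.057 with the replicate block and 0.016 without the length trend. *FOXJ1* gave 0.34 by limma, 0.053 with the replicate block, 0.015 with the crossed block and 0.13 without the length trend, and *WFDC2* gave 0.048 by limma. Omitting single libraries, the log2 fold change ran from -0.060 to 0.42 for *ANO1*, -0.91 to 2.43 for *BPIFB1*, -0.79 to 1.56 for *FOXJ1*, -5.24 to 0.58 for *KRT5*, -3.72 to 1.70 for *SCGB3A2*, -1.22 to 1.99 for *SFTPC*, -1.13 to 0.60 for *SLC26A9*, -0.95 to 0.23 for *TJP1* and -1.46 to 1.603 for *WFDC2*. Thinning to equal depth gave 55 lower and 13 higher.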
